A study of Mus musculus with 30 samples.

Results

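The enzymes described here were the hepatic genes of the 3 large conjugating families of drug and steroid metabolism. They were chosen by symbol and a minimum count, with earlier results of these data known. The families were glutathione S-transferases (GST, symbols starting Gst and Mgst), UDP-glucuronosyltransferases (UGT) and cytosolic sulfotransferases (SULT). Of 67 such genes in the count table, those with at least 100 expected counts summed over the 30 libraries were kept, which left 47 of the 55450 genes measured, 22 of them GST, 17 UGT and 8 SULT. The member nearest the minimum was Sult2a1 with 136.06 summed counts, and of the 20 genes left out the nearest was Sult3a1 with 97 counts. Whole liver RNA came from male mice on a C57BL/6N background, all fed a diet rich in fat, cholesterol and fructose (HFCFD), in 3 experiments with 5 control and 5 knockout mice each. The question was how loss of the transcription factor CEBPA from hepatocytes changes the liver under this diet. In HFCFD2W the diet lasted 2 weeks and Cebpa ΔHep mice, in which albumin-Cre is always active and removes floxed Cebpa from hepatocytes, were compared with Cre-negative Cebpa fl/fl mice. In HFCFD8W+T10D and HFCFD12W+T10W the knockouts were Cebpa ΔHep,ERT2 mice, whose albumin-driven Cre acts only after tamoxifen. Their controls were labelled WT, and Cebpa fl/fl is the control genotype reported for this line. Both genotypes of these experiments carried the same diet and tamoxifen label. In HFCFD12W+T10W tamoxifen was given over the last 10 weeks of 22 weeks of diet. In HFCFD8W+T10D the diet label is 8 weeks and tamoxifen covered the last 10 days. Whether those 10 days fall within the 8 weeks is not stated in the sources used here. The length of diet, the kind of Cre and tamoxifen change together from HFCFD2W to the other experiments and cannot be told apart between them, and the ages of the mice are not given in the sources used here.

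Phase II enzymes attach a polar group to a lipid-soluble molecule so that it can leave the cell. GST enzymes join glutathione to electrophiles and are grouped in classes (alpha, Gsta; mu, Gstm; pi, Gstp; theta, Gstt), with the MAPEG protein MGST1 sitting in membranes of the endoplasmic reticulum and mitochondria. UGT enzymes of the endoplasmic reticulum add glucuronic acid from UDP-glucuronate to bilirubin, steroids, bile acids and drugs, and the Ugt1a proteins are made from a single locus by joining alternative first exons to shared later exons. SULT enzymes of the cytosol add sulfate from the donor PAPS to phenols, catecholamines, steroids and bile acids. The hepatocyte is the main site of the 3 families in liver, and several members are known to differ between male and female mouse liver.

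Libraries held 7996123 to 10257347 expected counts. Levels are given as TMM-normalised CPM, the counts of a gene scaled to a common library total and listed by mouse in order of replicate number (2 to 6 for the HFCFD2W knockouts, 1 to 5 for the rest), and a gene passed the test at an adjusted p under 0.05 (Benjamini-Hochberg over all genes tested) in edgeR's quasi-likelihood test of knockout against control within an experiment. Cebpa itself was lower in the knockouts of each experiment, at 3.43 to 5.68 against 149 to 193 CPM in HFCFD2W, 11.1 to 25.1 against 121 to 156 in HFCFD8W+T10D and 18.7 to 23.8 against 82.5 to 135 in HFCFD12W+T10W, with no overlap. Markers of liver cell types moved as well. In HFCFD12W+T10W 7 of 7 stellate cell markers and 6 of 6 cholangiocyte markers were higher and 6 of 8 hepatocyte markers lower in the knockouts, and 3 of 3 tested lymphocyte markers were higher, as were 4 of 7 macrophage markers, with 1 of 7 lower. In HFCFD8W+T10D 4 of 7 macrophage, 2 of 7 stellate cell, 2 of 5 cholangiocyte and 1 of 2 lymphocyte markers were higher and 4 of 8 hepatocyte markers lower. In HFCFD2W 2 of 6 macrophage markers were higher and 2 of 8 hepatocyte markers lower. Of 6 endothelial markers 2 were lower in HFCFD12W+T10W and 1 in HFCFD8W+T10D. The summed level of the stellate cell markers had a median of 333 (range 296 to 370.4) CPM in the controls and 1067 (range 1039 to 1288) CPM in the knockouts of HFCFD12W+T10W, and that of the hepatocyte markers was 91260 (range 84830 to 107800) and 47950 (range 43100 to 50190). The macrophage sums were 741 (range 518 to 973) CPM in controls and 1080.0 (range 858 to 1618) CPM in knockouts of HFCFD8W+T10D. In HFCFD8W+T10D the hepatocyte sums were 121200 (range 102600 to 126300) in controls and 58490 (range 49260 to 99860) in knockouts, and in HFCFD2W 109100 (range 100600 to 128800) and 140800 (range 103700 to 151800). The hepatocyte sums mostly follow Alb, whose mean in HFCFD8W+T10D was 96091 CPM in controls and 49641 CPM in knockouts. Ttr, on the same list, had means of 4992.6 and 7156.1 CPM there and did not pass (0.53 ± 0.22, adjusted p = 0.121). The part that these shifts have in the results below was not tested, and in bulk liver fewer cells of a type and less RNA per cell cannot be told apart.

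The RefSeq windows (GRCm38.p6) matched 41 of the 47 genes. For 9 genes named in the results below, the 250 bases before the start are printed, 5′ to 3′ on the gene's strand. For the first 5, a match to the C/EBP letters TTGCNNAA on either strand is in capitals. These are Sult2a8 (chr7:14446588-14446837, minus strand), Ugt2b36 (chr5:87092556-87092805, minus strand), Ugt2b5 (chr5:87140341-87140590, minus strand), Mgst1 (chr6:138140277-138140526, plus strand) and Gstm2 (chr3:107986421-107986670, minus strand), of which the first 4 fell and Gstm2 rose in at least 1 experiment.
Sult2a8: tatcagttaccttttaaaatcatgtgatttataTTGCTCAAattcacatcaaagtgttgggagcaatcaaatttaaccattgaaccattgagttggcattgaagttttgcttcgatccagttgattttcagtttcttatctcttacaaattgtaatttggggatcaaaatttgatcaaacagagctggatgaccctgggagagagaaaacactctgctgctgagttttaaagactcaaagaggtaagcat
Ugt2b36: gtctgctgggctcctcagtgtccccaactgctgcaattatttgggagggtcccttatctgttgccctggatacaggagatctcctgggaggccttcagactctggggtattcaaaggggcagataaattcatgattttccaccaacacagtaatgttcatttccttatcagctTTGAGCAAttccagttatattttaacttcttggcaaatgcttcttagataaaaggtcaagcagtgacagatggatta
Ugt2b5: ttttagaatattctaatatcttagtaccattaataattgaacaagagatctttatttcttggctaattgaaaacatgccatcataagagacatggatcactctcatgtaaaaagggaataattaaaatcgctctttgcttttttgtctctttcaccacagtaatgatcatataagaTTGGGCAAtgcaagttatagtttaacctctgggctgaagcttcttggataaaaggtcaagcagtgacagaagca
Mgst1: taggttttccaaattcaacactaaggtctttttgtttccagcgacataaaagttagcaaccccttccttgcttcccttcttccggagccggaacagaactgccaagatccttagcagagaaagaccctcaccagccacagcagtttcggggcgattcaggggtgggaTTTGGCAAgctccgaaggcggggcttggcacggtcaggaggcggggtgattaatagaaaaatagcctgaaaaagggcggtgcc
Gstm2: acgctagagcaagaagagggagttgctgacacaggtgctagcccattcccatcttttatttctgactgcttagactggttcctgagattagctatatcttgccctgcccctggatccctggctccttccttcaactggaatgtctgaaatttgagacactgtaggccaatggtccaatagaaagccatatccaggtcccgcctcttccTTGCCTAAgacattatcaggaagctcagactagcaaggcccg
In Ugt1a1 (chr1:88211709-88211958, plus strand) and Ugt1a9 (chr1:88070529-88070778, plus strand), the capitals mark a match to part of the HNF1 consensus. The estimated levels of these alternative first exons of the same locus moved in opposite directions in HFCFD2W and HFCFD12W+T10W.
Ugt1a1: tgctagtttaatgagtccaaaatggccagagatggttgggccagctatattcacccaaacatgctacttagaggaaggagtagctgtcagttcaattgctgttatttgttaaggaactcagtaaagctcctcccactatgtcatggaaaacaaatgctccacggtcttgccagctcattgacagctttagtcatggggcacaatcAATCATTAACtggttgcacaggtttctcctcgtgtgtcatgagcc
Ugt1a9: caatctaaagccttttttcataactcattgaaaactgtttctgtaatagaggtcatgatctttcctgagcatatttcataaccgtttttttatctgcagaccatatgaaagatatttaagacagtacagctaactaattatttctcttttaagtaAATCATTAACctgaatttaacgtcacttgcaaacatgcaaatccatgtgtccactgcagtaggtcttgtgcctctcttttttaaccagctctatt
In Gsta1 (chr9:78230419-78230668, plus strand) and Gsta2 (chr9:78347146-78347395, minus strand), which rose together, the capitals mark their longest common run of 29 bases.
Gsta1: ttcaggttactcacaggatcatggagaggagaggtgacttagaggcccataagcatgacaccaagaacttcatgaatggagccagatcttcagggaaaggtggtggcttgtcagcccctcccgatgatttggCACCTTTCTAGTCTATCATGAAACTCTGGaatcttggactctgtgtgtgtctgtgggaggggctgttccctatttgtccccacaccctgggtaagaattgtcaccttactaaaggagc
Gsta2: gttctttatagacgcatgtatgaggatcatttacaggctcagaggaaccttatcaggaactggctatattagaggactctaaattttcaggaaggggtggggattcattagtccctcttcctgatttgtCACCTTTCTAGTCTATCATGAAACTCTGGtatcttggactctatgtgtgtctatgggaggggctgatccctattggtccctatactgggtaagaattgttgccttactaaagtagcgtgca
Gsta1 and Gsta2 had 24 of 239 runs of 12 bases in common in these windows, Ugt2b36 and Ugt2b5 had 13, and Ugt1a1 and Ugt1a9 had 0. The RefSeq start of Sult2a8 lies 182 bases and that of Mgst1 211 bases from the start in the gene models used for counting (GENCODE M21), and for Gsta2 the 2 starts lie 8643 bases apart. A match of letters is a description of the sequence, not a binding site.

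By level per transcript length (TPM), a few genes made up most of the conjugating transcripts. In the controls of HFCFD12W+T10W the order was Mgst1 at 6429.9 ± 564 TPM (mean ± SD, n = 5), Gstp1 at 1766 ± 854, Gstm1 at 1380.4 ± 217 and Gsta3 at 1335 ± 92.7, of which the last 3 had overlapping spreads. The leading UGT genes there were Ugt2b36 at 589 ± 19.5, Ugt2b5 at 588 ± 89.96, Ugt1a1 at 435 ± 80.8 and Ugt2a3 at 317 ± 40.7 TPM, of which the first 2 lay within each other's spread, while Ugt2b1, among the leading 3 by the mean over all 30 libraries, stood at 239 ± 74.8 TPM. The leading SULT gene was Sult2a8 at 497 ± 183 TPM, followed by Sult1a1 at 224 ± 54.4 and Sult1d1 at 105 ± 26.5.

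The families went different ways when summed. The GST genes together stood at 9434 ± 955 CPM in controls and 10458 ± 631 in knockouts of HFCFD2W, then at 8895 ± 904 and 13221 ± 2811 in the 8-week and 7823 ± 630.0 and 8309 ± 1005 in the 22-week experiment (mean ± SD, n = 5). The UGT sum was 6612 ± 626 and 6393 ± 257, then 5328 ± 839 and 4611 ± 1304, then 5070.5 ± 396 and 2888 ± 260.1 CPM. The SULT sum was 1229 ± 103 and 1081 ± 48.0, then 1246 ± 146 and 407 ± 92.1, then 1129.8 ± 192 and 239.8 ± 27.2 CPM. The picture in HFCFD12W+T10W depends on the scaling. As a share of all counts of a library, the GST genes there held 0.775% ± 0.0552 (range 0.729 to 0.864) in controls and 1.10% ± 0.117 (range 0.940 to 1.26) in knockouts, which did not overlap, whereas the GST sums in CPM overlapped. The UGT share there was 0.502% ± 0.0276 (range 0.468 to 0.531) in controls and 0.381% ± 0.0239 (range 0.349 to 0.409) in knockouts, and the SULT share 0.112% ± 0.0160 (range 0.0916 to 0.129) and 0.0317% ± 0.00425 (range 0.0269 to 0.0377), again with no overlap. Sums follow the most abundant genes, and no test was run on them.

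**Figure D1:**
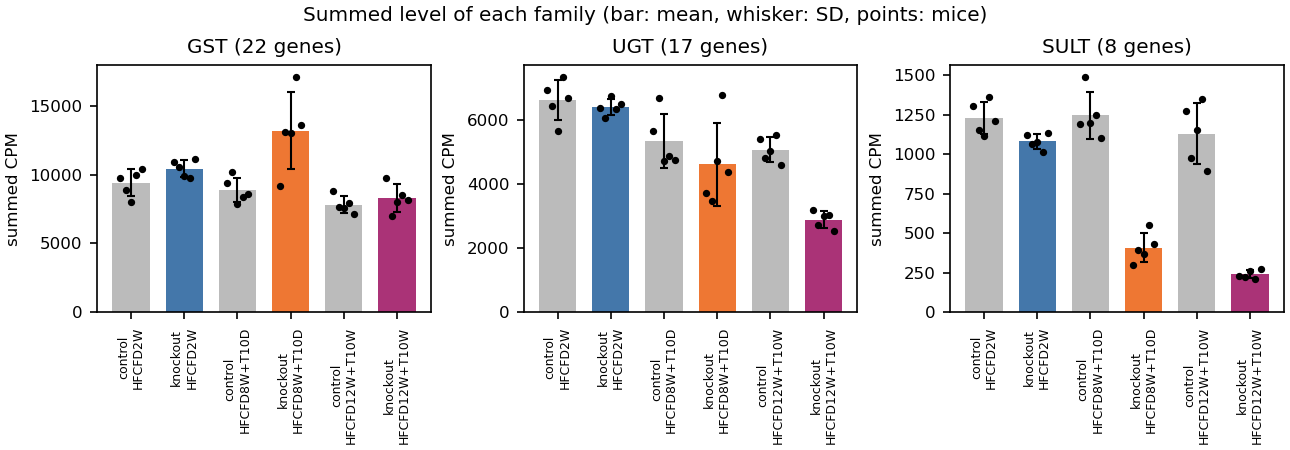
Summed level of the GST, UGT and SULT genes in each mouse (vertical axis, TMM-normalised CPM) for the 3 experiments (horizontal axis), with bars for the group mean, whiskers for the SD and 1 point a mouse. In HFCFD12W+T10W the knockouts' mean ± SD was 2888 ± 260.1 CPM for the UGT genes against 5070.5 ± 396 in controls, and 239.8 ± 27.2 against 1129.8 ± 192 CPM for the SULT genes.

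Counted gene by gene, the GST family held most of the increases and the SULT family had decreases only. In HFCFD2W, 8 of the 45 members tested were higher and 10 lower in the knockouts, where 8.6% of all 11068 genes tested were higher and 8.09% lower. In HFCFD8W+T10D 15 of 45 were higher and 12 lower, against 10.3% and 6.85% of 11990 genes, and in HFCFD12W+T10W 11 of 44 were higher and 24 lower, against 27.4% and 23.8% of 12463 genes. As a group the members were abundant (median 119.8 CPM in HFCFD12W+T10W against 12.92 CPM over all genes tested), and among all genes at or above the members' median level 24%, 24.5% and 70% passed in either direction in the 3 experiments in turn. Scaling HFCFD12W+T10W by total counts alone, a setting added after the data were seen, moved the median log2 fold change of all genes from 0.0129 to 0.3837 and the members' split from 11 higher and 24 lower to 15 and 17, so that 53.1% rather than 68.6% of the calls were decreases. The decreases of Gsta3, Gstk1, Gsto1, Gstp3, Gstt2, Sult1a1 and Ugt1a6a did not pass under that scaling, nor did that of Sult1c2 in HFCFD8W+T10D, where the median moved to 0.1947.

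At over 2-fold as well, members higher and lower numbered 4 and 3 in HFCFD2W (1.69% and 1.38% of all genes), 10 and 7 for HFCFD8W+T10D (4.09% and 2.01%), then 6 and 11 for HFCFD12W+T10W (14.3% and 3.47%).

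By family, the GST genes had 6 increases and 5 decreases in HFCFD2W, then 11 and 3, then 8 and 9 in the longer experiments. The UGT genes had 2 and 4, then 4 and 5, then 3 and 9. Of the 6 SULT genes tested 1, 4 and 6 were lower in turn. By edgeR 0 SULT genes were higher in any of the 3 experiments, DESeq2 and limma called 0 as well, and at an unadjusted p under 0.05 edgeR found 1 higher in HFCFD2W and 0 in the others. Under total count scaling the HFCFD12W+T10W split was 10 and 4 for GST, 5 and 8 for UGT and 0 and 5 for SULT. The median log2 fold change of the members was -0.05, 0.10 and -0.48 in the 3 experiments, where that of all genes tested was 0.0073, 0.0111 and 0.0129. Genotypes did not overlap for 5 members above and 8 below control in HFCFD2W (12.5% of all genes did not overlap in either direction), for 11 and 10 in the 8-week experiment (11.5%) and for 7 and 20 in the 22-week experiment (39.1%).

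Of the 44 members tested in each experiment, 6 passed as higher in all 3 (Gsta1, Gsta2, Gsta4, Gstm1, Gstm3 and Ugt1a9) and 7 as lower in all 3 (Gstt3, Gstz1, Mgst1, Sult1d1, Ugt2a3, Ugt3a1 and Ugt3a2). Some of these calls were lost with a mouse left out, among them Gsta1 in HFCFD2W and Gstz1 and Ugt3a1 in HFCFD8W+T10D. Across all 10950 genes tested in the 3 experiments, 1.69% were higher and 1.95% lower in each. No member passed in opposite directions in different experiments under the main normalisation. Gstp2, Ugt1a10, Ugt2b34 and Ugt2b37 passed in none.

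**Figure D2:**
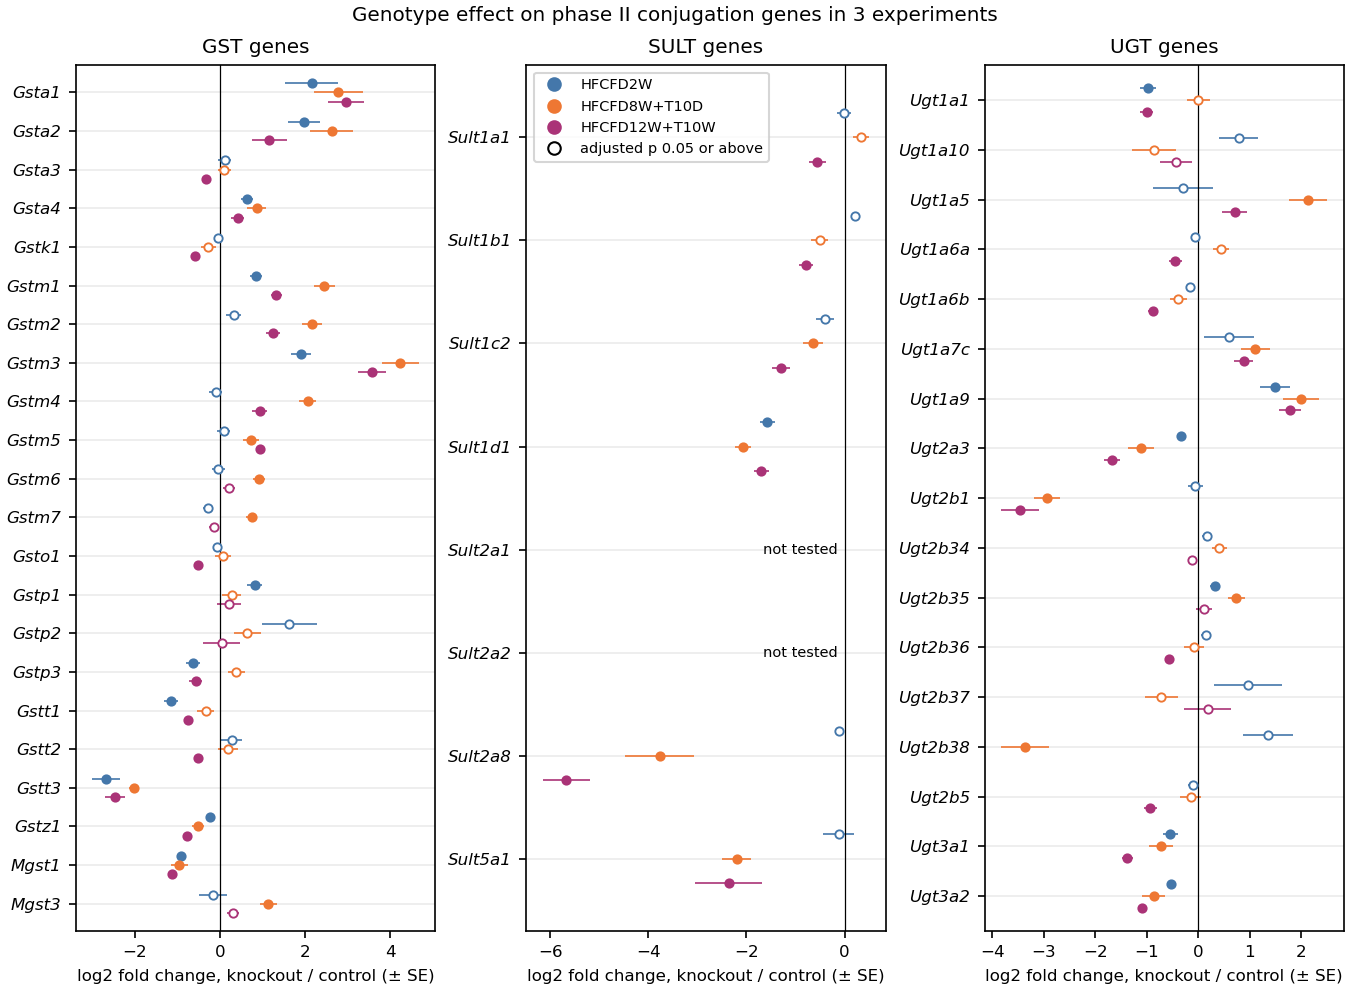
Log2 fold change of knockout over control (horizontal axis, edgeR, bars give the standard error) for each member tested (vertical axis, grouped by family), with the 3 experiments in separate colours, filled points for an adjusted p under 0.05 and open points otherwise. The SULT points that passed lie left of 0 and the Gstm and Gsta points that passed lie right of 0, apart from Gsta3, which fell by 0.31 on the log2 scale in HFCFD12W+T10W.

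Mu class genes rose, and Gstm3 had the largest log2 fold change among the GST genes tested. Gstm1 (chr3:108012255-108017973, GRCm38) encodes a main cytosolic mu enzyme of liver. In HFCFD8W+T10D, Gstm1 was at 1281, 1014, 811, 943 and 1325 CPM in the controls and at 3065, 6271, 5399.5, 8199 and 6395 CPM in the knockouts. The groups did not overlap, knockout 1 being the lowest of its group, and the log2 fold change was 2.46 ± 0.26 (adjusted p = 6.11e-05). It was 0.85 ± 0.14 (adjusted p = 0.00144) in HFCFD2W and 1.33 ± 0.13 (adjusted p = 5.86e-06) in HFCFD12W+T10W. Gstm3 (chr3:107963696-107969283) stood much lower in controls and rose further. In HFCFD8W+T10D, Gstm3 was at 85.3, 55.1, 22.5, 31.8 and 90.1 CPM in the controls and at 481, 1613, 1159.7, 938 and 1153 CPM in the knockouts. In HFCFD12W+T10W, Gstm3 was at 99.9, 122, 83.6, 30.4 and 48.2 CPM in the controls and at 1103, 594, 906, 911 and 912 CPM in the knockouts. Each knockout lay above each control in both, with log2 fold changes of 4.24 ± 0.43 (adjusted p = 5.43e-05) and 3.57 ± 0.33 (adjusted p = 3.18e-06). In HFCFD2W the rise was 1.91 ± 0.23 (adjusted p = 0.000148), with 28.6 to 44.6 CPM in the controls and 87.3 to 217 CPM in the knockouts.

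Gstm2 and Gstm4, further mu enzymes, did not pass in HFCFD2W (0.33 ± 0.17 and -0.09 ± 0.15) but were higher in knockouts than in controls of both tamoxifen experiments. In HFCFD8W+T10D, Gstm2 was at 62.6, 66.5, 34.8, 56.9 and 71.4 CPM in the controls and at 167, 375, 282, 254.7 and 222 CPM in the knockouts. Its log2 fold change was 2.17 ± 0.23 (adjusted p = 6.6e-05) there and 1.25 ± 0.17 (adjusted p = 6.93e-05) in HFCFD12W+T10W. In HFCFD8W+T10D, Gstm4 was at 22.2, 26.003, 15.3, 17.1 and 21.6 CPM in the controls and at 52.0, 116, 81.0, 92.8 and 82.5 CPM in the knockouts. The change was 2.07 ± 0.20 (adjusted p = 4.38e-05), and 0.93 ± 0.18 (adjusted p = 0.000928) in HFCFD12W+T10W. Gstm5, Gstm6 and Gstm7 rose by less than 1 on the log2 scale, at 0.74 ± 0.18, 0.92 ± 0.14 and 0.75 ± 0.12 in HFCFD8W+T10D, and of these Gstm5 alone also passed in HFCFD12W+T10W (0.95 ± 0.10). The microsomal enzyme gene Mgst3, of the MAPEG family, rose in HFCFD8W+T10D by 1.14 ± 0.20 (adjusted p = 0.00225), with 8.84 to 16.6 CPM in the controls and 20.05 to 36.0 CPM in the knockouts.

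Of the alpha class, Gsta1, Gsta2 and Gsta4 passed as higher in each experiment and Gsta3, the alpha gene with the highest mean TPM, did not. In HFCFD8W+T10D, Gsta2 was at 13.7, 11.4, 4.63, 12.6 and 17.8 CPM in the controls and at 9.93, 95.4, 62.4, 112 and 91.7 CPM in the knockouts. The log2 fold change of Gsta2 was 2.63 ± 0.50 (adjusted p = 0.00412), after 1.97 ± 0.38 (adjusted p = 0.0038) in HFCFD2W, and it was 1.16 ± 0.41 (adjusted p = 0.0312) in HFCFD12W+T10W. Gsta1 was near 0 in the HFCFD2W livers. In HFCFD2W, Gsta1 was at 0, 0.297, 0.816, 1.10 and 2.70 CPM in the controls and at 2.60, 5.84, 1.35, 8.94 and 3.49 CPM in the knockouts. In HFCFD8W+T10D Gsta1 was at 12.4, 10.5, 3.24, 5.08 and 19.3 CPM in controls and 7.59, 94.1, 70.0, 86.1 and 90.04 CPM in knockouts, where knockout 1 overlapped the controls. The log2 fold changes of Gsta1 were 2.16 ± 0.63 (adjusted p = 0.0333), 2.79 ± 0.57 (adjusted p = 0.00624) and 2.96 ± 0.42 (adjusted p = 8.34e-05) in the 3 experiments in turn. The HFCFD2W call of Gsta1 was lost when any of 7 of the 10 mice was left out, with adjusted p up to 0.0766, and by DESeq2. The HFCFD12W+T10W call of Gsta2 was lost when any of 3 mice was left out. Gsta4, whose enzyme acts on 4-hydroxynonenal from lipid peroxidation, rose by 0.65 ± 0.14, 0.87 ± 0.21 and 0.42 ± 0.15. Gsta3 was at 927 to 1194 CPM in controls and 713 to 962 CPM in knockouts of HFCFD12W+T10W (-0.31 ± 0.10, adjusted p = 0.0233), a call lost under total count scaling with a change of sign to 0.0611.

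The GST genes that fell belonged to other classes. Mgst1 (chr6:138140316-138156755) had the highest mean TPM of the 47 genes over all 30 libraries and fell in each experiment. In HFCFD12W+T10W, Mgst1 was at 3537, 3199, 2849, 3205 and 3200.5 CPM in the controls and at 1396, 1254, 1575, 1476 and 1446 CPM in the knockouts. The groups did not overlap, and the log2 fold change was -1.12 ± 0.09 (adjusted p = 1.13e-06), after -0.91 ± 0.09 (adjusted p = 3.04e-05) and -0.95 ± 0.20 (adjusted p = 0.00644). Gstt3, of the theta class, fell most steeply among the GST genes. In HFCFD2W, Gstt3 was at 14.8, 23.7, 17.8, 9.11 and 20.9 CPM in the controls and at 2.84, 1.68, 2.16, 5.49 and 1.34 CPM in the knockouts. In HFCFD8W+T10D, Gstt3 was at 38.1, 42.7, 38.7, 32.9 and 40.5 CPM in the controls and at 8.52, 9.38, 7.91, 12.1 and 9.40 CPM in the knockouts. In HFCFD12W+T10W, Gstt3 was at 30.2, 35.7, 33.1, 13.9 and 36.3 CPM in the controls and at 4.36, 5.36, 6.67, 5.11 and 4.69 CPM in the knockouts. Each knockout lay below each control of its experiment, with log2 fold changes of -2.67 ± 0.33 (adjusted p = 0.000191), -2.02 ± 0.12 (adjusted p = 2.74e-06) and -2.46 ± 0.23 (adjusted p = 3.88e-06). Gstt1, the better known theta enzyme, fell in HFCFD2W (-1.14 ± 0.16, adjusted p = 0.000394), with 125 to 199 CPM in the controls and 58.8 to 105 CPM in the knockouts, and in HFCFD12W+T10W (-0.75 ± 0.09, adjusted p = 2.64e-05), and stood at -0.33 ± 0.21 in HFCFD8W+T10D, where it did not pass. Gstz1, which catalyses the maleylacetoacetate step of tyrosine breakdown, fell by 0.23 ± 0.06, 0.51 ± 0.15 and 0.77 ± 0.07 on the log2 scale.

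Gstp1, the pi enzyme second in mean TPM, was variable among controls after the longer diets. In HFCFD8W+T10D, Gstp1 was at 1312, 1437, 1412, 1275 and 644 CPM in the controls and at 1074, 1510.1, 1576, 1835 and 1309.7 CPM in the knockouts. Control 5 was far below the other controls, and the groups overlapped (0.28 ± 0.22, adjusted p = 0.42). In HFCFD2W Gstp1 rose by 0.82 ± 0.18 (adjusted p = 0.00718), with 1933 to 3528 CPM in the controls and 3228 to 5436 CPM in the knockouts, and in HFCFD12W+T10W it did not pass (0.22 ± 0.29). Gstp3 fell in HFCFD2W (-0.63 ± 0.17) and HFCFD12W+T10W (-0.56 ± 0.15). Gstt2 (-0.50 ± 0.08), Gstk1 (-0.59 ± 0.09) and Gsto1 (-0.52 ± 0.09) fell in HFCFD12W+T10W and did not pass in the other experiments.

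**Figure D3:**
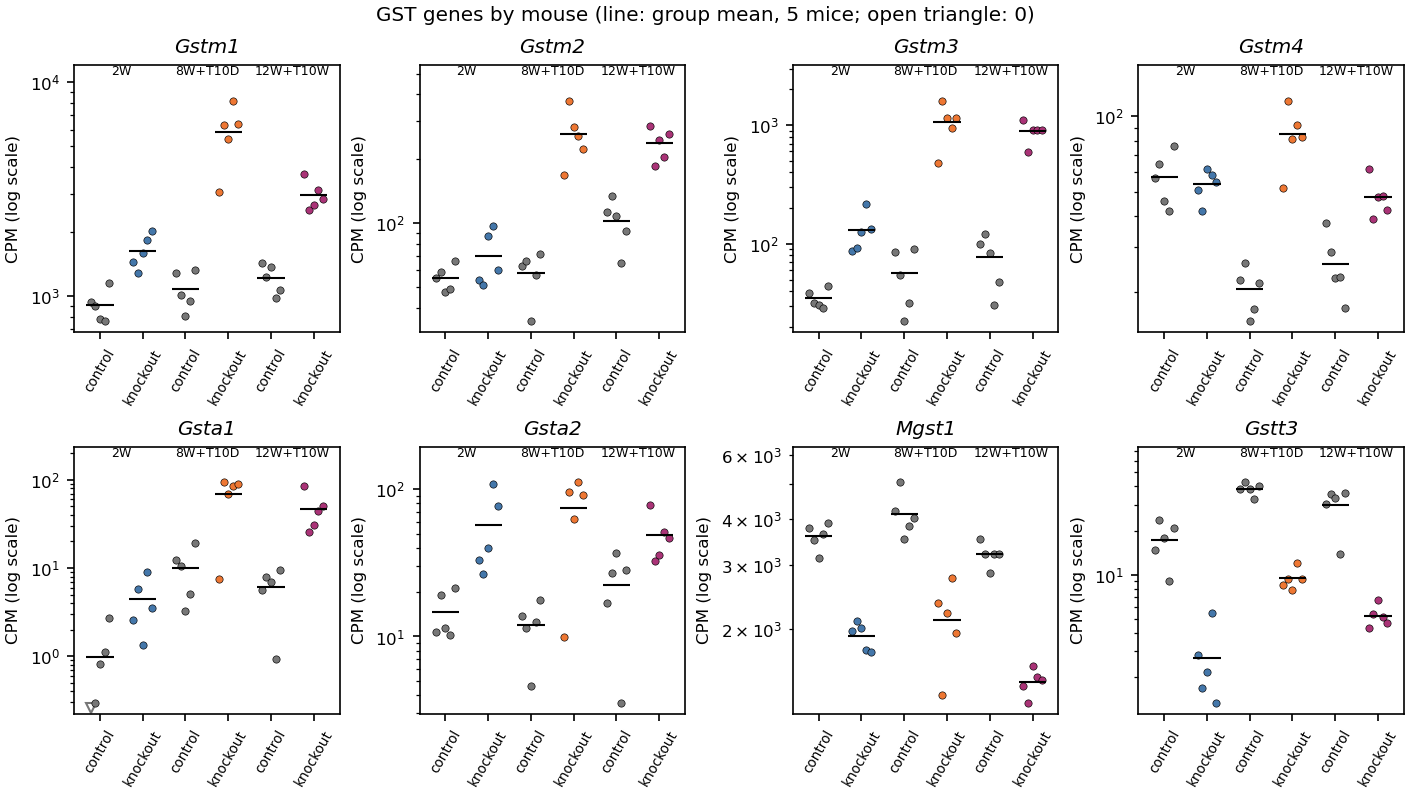
Level of 8 GST genes in each of the 30 mice (vertical axis, TMM-normalised CPM on a log axis, zeros drawn as open triangles at the bottom) by experiment and genotype (horizontal axis), with lines at the group means. For Gstm3 the 5 knockouts of HFCFD8W+T10D and of HFCFD12W+T10W lie above all controls of the same experiment, and for Gsta1 knockout 1 of HFCFD8W+T10D lies at 7.59 CPM.

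Sult2a8 (chr7:14410686-14446769), which encodes a bile acid sulfotransferase of mouse liver, had the largest difference in CPM among the SULT genes in both tamoxifen experiments, while in HFCFD2W the largest was that of Sult1d1. In HFCFD2W, Sult2a8 was at 1010.4, 846, 828, 1074 and 897 CPM in the controls and at 926, 813, 876, 774 and 918 CPM in the knockouts. The groups overlapped there, at a log2 fold change of -0.11 ± 0.09 (adjusted p = 0.439). In HFCFD8W+T10D, Sult2a8 was at 725, 972, 683, 747 and 417 CPM in the controls and at 26.4, 2.06, 34.2, 144 and 52.7 CPM in the knockouts. In HFCFD12W+T10W, Sult2a8 was at 809.9, 584, 554, 907 and 318 CPM in the controls and at 5.41, 11.7, 28.04, 9.21 and 5.75 CPM in the knockouts. No knockout reached the lowest control in either, and the log2 fold changes were -3.77 ± 0.71 (adjusted p = 0.00376) and -5.67 ± 0.48 (adjusted p = 1.57e-06). Knockout 4 of HFCFD8W+T10D kept the highest level of its group. Control 5 was the lowest control of HFCFD12W+T10W.

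Sult1d1, a catecholamine sulfotransferase, fell in each experiment. In HFCFD2W, Sult1d1 was at 119, 104, 111, 122.5 and 137 CPM in the controls and at 53.8, 47.5, 29.1, 36.2 and 31.4 CPM in the knockouts. In HFCFD8W+T10D, Sult1d1 was at 176, 252, 222, 229.5 and 333 CPM in the controls and at 57.8, 48.0, 49.9, 68.1 and 62.1 CPM in the knockouts. In HFCFD12W+T10W, Sult1d1 was at 154, 166, 257, 153 and 234 CPM in the controls and at 59.3, 60.04, 55.9, 56.6 and 57.1 CPM in the knockouts. Each knockout lay below each control of its experiment. The log2 fold changes were -1.58 ± 0.15 (adjusted p = 3.04e-05), -2.07 ± 0.16 (adjusted p = 9.91e-06) and -1.70 ± 0.15 (adjusted p = 1.72e-06). Sult5a1, a member of little known function, was lower in HFCFD8W+T10D (28.6 to 44.4 CPM in controls, 2.998 to 13.2 in knockouts, -2.20 ± 0.29, adjusted p = 0.000329) and in HFCFD12W+T10W, where the groups overlapped (-2.36 ± 0.68, adjusted p = 0.0113). Sult1c2 fell by 0.64 ± 0.20 and 1.30 ± 0.18 on the log2 scale in these experiments. The phenol sulfotransferase gene Sult1a1 (-0.56 ± 0.17) and Sult1b1 (-0.79 ± 0.14), whose enzyme takes thyroid hormones, fell in HFCFD12W+T10W and did not pass in the other experiments. Sult2a1 and Sult2a2, steroid and bile acid sulfotransferases with much higher levels in female than male mouse liver, had too few counts to be tested. Control 5 of HFCFD12W+T10W held 9.69 CPM of Sult2a1 and 29.4 CPM of Sult2a2, and the next library, knockout 2 of that experiment, held 2.22 and 5.17 CPM. Sult2a1 and Sult2a2 share part of their sequence, so these values are uncertain as those of single genes.

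Levels of sex-biased liver genes moved beside the sulfotransferases. Among the 7 listed male-biased genes tested, 5 fell in HFCFD8W+T10D, led by Elovl3, a fatty acid elongase (-5.56 ± 0.75, adjusted p = 0.000426), and 5 of 7 fell in HFCFD12W+T10W (Elovl3 -5.91 ± 0.69, adjusted p = 1.84e-05). In HFCFD2W 2 of 8 fell and 1, the major urinary protein gene Mup20, rose (1.06 ± 0.15). Of the listed female-biased genes, 2 rose (Cux2 2.59 ± 0.58, Cyp3a41a 3.07 ± 0.95) and 2 fell (Cyp2b9 -3.93 ± 0.53, Cyp2b13 -2.34 ± 0.60) of 5 tested in HFCFD8W+T10D, and 3 fell of 6 in HFCFD12W+T10W. Control 5 of HFCFD12W+T10W had the lowest male-biased sum of its group, 822 CPM, and the highest female-biased sum, 617 CPM, together with its low Sult2a8. Of all genes tested, 8.6%, 10.3% and 27.4% rose and 8.09%, 6.85% and 23.8% fell in the 3 experiments in turn. The part of sex-biased regulation in the Sult2a8 result was not tested.

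Among UGT genes the steepest falls were in the Ugt2b cluster, in Ugt2b1 and in Ugt2b38, which is among the genes marked below as sharing reads. In HFCFD8W+T10D, Ugt2b1 was at 811, 1013, 831, 762 and 493 CPM in the controls and at 73.2, 106, 72.9, 161 and 93.7 CPM in the knockouts. In HFCFD12W+T10W, Ugt2b1 was at 672, 449, 409, 571 and 265 CPM in the controls and at 30.5, 24.1, 86.6, 42.0 and 24.8 CPM in the knockouts. The knockouts lay below all controls in both experiments, at log2 fold changes of -2.94 ± 0.25 (adjusted p = 1.4e-05) and -3.46 ± 0.37 (adjusted p = 9.89e-06). In HFCFD2W Ugt2b1 did not pass, at 1535, 1480.1, 1179, 2091 and 1444 CPM in controls and 1625, 1684, 1514, 1170.1 and 1427 CPM in knockouts (-0.06 ± 0.14). Ugt2b38 did not pass in HFCFD2W (1.35 ± 0.49, adjusted p = 0.0757), fell in HFCFD8W+T10D (-3.37 ± 0.46, adjusted p = 0.00044), with 7.58 to 25.3 CPM in the controls and 0.494 to 4.51 CPM in the knockouts, and had too few counts to be tested in HFCFD12W+T10W. Ugt2b36 and Ugt2b5, the UGT genes with the highest mean TPM over the 30 libraries, fell in HFCFD12W+T10W and did not pass in the other experiments. In HFCFD12W+T10W, Ugt2b36 was at 727, 695, 752, 772 and 669 CPM in the controls and at 539.7, 439.9, 488, 488 and 421 CPM in the knockouts. In HFCFD12W+T10W, Ugt2b5 was at 824, 718, 753, 1048 and 699 CPM in the controls and at 441, 335, 473, 441 and 372 CPM in the knockouts. The falls were 0.56 ± 0.09 (adjusted p = 0.000145) and 0.93 ± 0.13 (adjusted p = 7.65e-05) on the log2 scale. Ugt2b35 rose by 0.32 ± 0.09 in HFCFD2W and 0.74 ± 0.17 in HFCFD8W+T10D.

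Ugt2a3, Ugt3a1 and Ugt3a2 fell in each experiment. UGT3A enzymes differ from the rest of the family in using sugars other than glucuronic acid. In HFCFD12W+T10W, Ugt2a3 was at 555, 547, 477, 543 and 401 CPM in the controls and at 152, 128, 210.4, 164 and 112 CPM in the knockouts. The log2 fold change of Ugt2a3 was -1.67 ± 0.16 (adjusted p = 3.76e-06), after -0.33 ± 0.09 (adjusted p = 0.0226) and -1.11 ± 0.25 (adjusted p = 0.011). Ugt3a1 had 155 to 172 CPM in the controls and 46.5 to 75.3 CPM in the knockouts in HFCFD12W+T10W (-1.38 ± 0.11, adjusted p = 9.07e-07), after -0.54 ± 0.14 and -0.72 ± 0.23. Its HFCFD8W+T10D call (adjusted p = 0.0447) was lost under upper quartile normalization and in most fits with a mouse left out. Ugt3a2 had 392 to 421 CPM in the controls and 159 to 211 CPM in the knockouts (-1.09 ± 0.08, adjusted p = 7.4e-07), after -0.53 ± 0.09 and -0.87 ± 0.22.

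Within the single Ugt1a locus (chr1:88055388-88220002, GRCm38), estimated levels of alternative first exons went opposite ways in HFCFD2W and HFCFD12W+T10W. Ugt1a9 rose in each experiment. In HFCFD2W, Ugt1a9 was at 78.4, 109, 65.9, 89.3 and 67.6 CPM in the controls and at 126, 115, 267, 341 and 300.2 CPM in the knockouts. In HFCFD8W+T10D, Ugt1a9 was at 133, 134, 78.6, 78.2 and 112 CPM in the controls and at 167, 349, 304, 850.3 and 447 CPM in the knockouts. In HFCFD12W+T10W, Ugt1a9 was at 54.1, 35.1, 76.6, 63.0 and 90.7 CPM in the controls and at 279.6, 199, 204, 205 and 184 CPM in the knockouts. Its log2 fold changes were 1.49 ± 0.28 (adjusted p = 0.0035), 2.00 ± 0.35 (adjusted p = 0.00249) and 1.79 ± 0.21 (adjusted p = 2.07e-05). Ugt1a1, whose enzyme conjugates bilirubin, was lower in the first and last of these experiments. In HFCFD2W, Ugt1a1 was at 375, 444, 485, 448 and 450.02 CPM in the controls and at 182, 149.9, 304, 238 and 245 CPM in the knockouts. In HFCFD12W+T10W, Ugt1a1 was at 636, 585, 794, 719 and 916 CPM in the controls and at 372, 388, 325, 342 and 339 CPM in the knockouts. The log2 fold changes were -0.98 ± 0.16 (adjusted p = 0.00107) and -1.01 ± 0.12 (adjusted p = 2e-05), while in HFCFD8W+T10D it stood at 785, 677, 550.1, 541 and 722 CPM in controls and 611, 369, 765, 971 and 534 CPM in knockouts (0.00 ± 0.22, adjusted p = 0.998). Ugt1a5 rose in HFCFD8W+T10D (2.14 ± 0.37, adjusted p = 0.00216) and HFCFD12W+T10W (0.70 ± 0.25), and Ugt1a7c did likewise (1.11 ± 0.28 and 0.88 ± 0.19). The phenol-conjugating Ugt1a6a (-0.45 ± 0.13) and Ugt1a6b (-0.88 ± 0.09) fell in HFCFD12W+T10W.

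**Figure D4:**
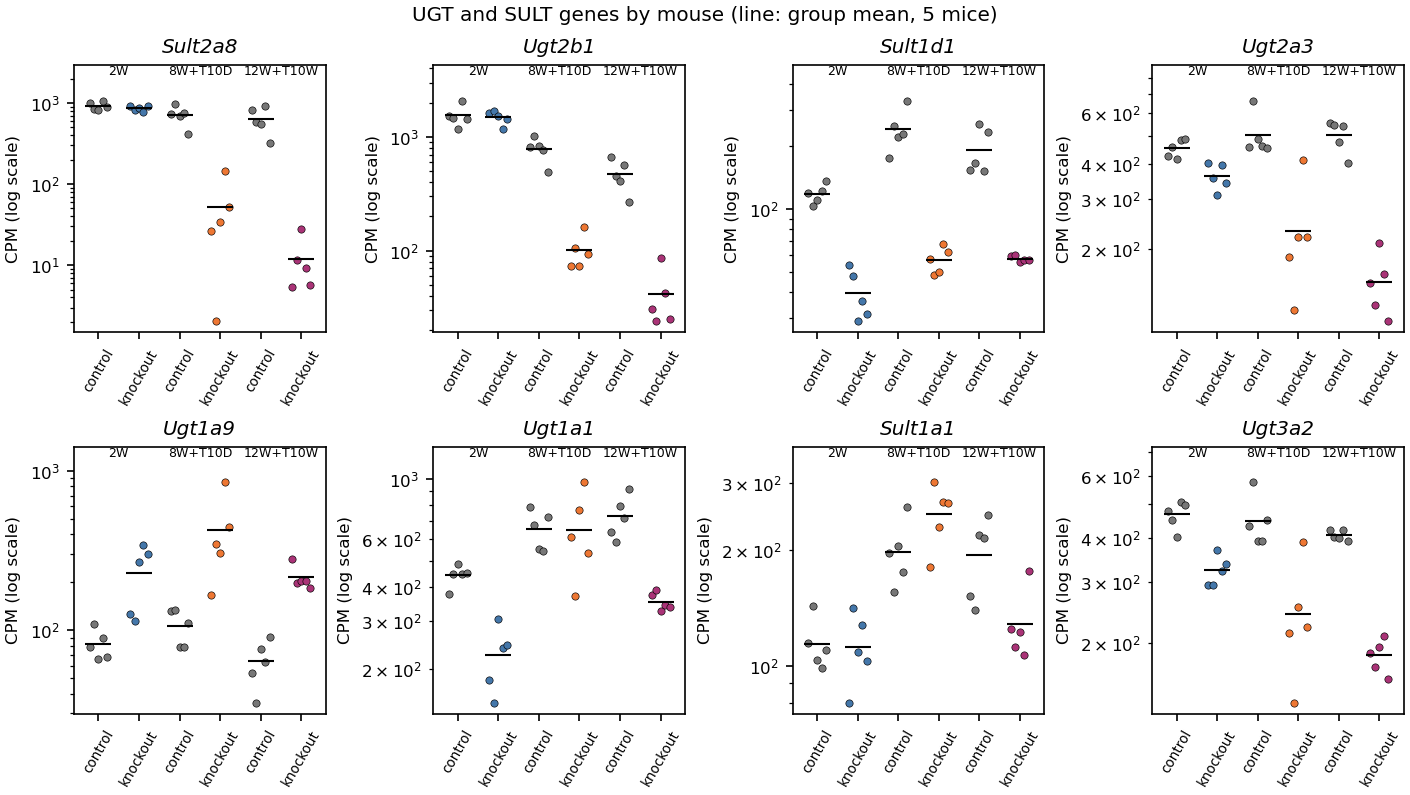
Level of 5 UGT and 3 SULT genes in each of the 30 mice (vertical axis, TMM-normalised CPM on a log axis) by experiment and genotype (horizontal axis), with lines at the group means. Sult2a8 and Ugt2b1 overlap between genotypes in HFCFD2W and do not overlap in the other experiments.

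Reads from near-identical members could be divided between them by the authors' estimation, so 21 of the 47 genes, 7 GST and 14 UGT, whose expected counts were not whole numbers in at least 15 of 30 libraries, are uncertain as single genes. Of the 75-base windows in Gsta1 transcripts, 84.66% also occurred in another gene, as did 36.59% for Gsta2, 11.65% for Gstm1, 21.58% for Gstm3 and 51.16% to 74.76% for the Ugt1a genes. The 8 SULT genes were not marked by this rule, although 47.23% of Sult2a2 windows recurred elsewhere. Sult2a1 and Sult2a2 had counts in only 7 and 9 libraries, so the rule could not mark them. For each, the count was not whole in 4 libraries. Adding the marked genes of a class together gave values for the class and not for its single genes. Merged Gsta1 and Gsta2 gave 1.99 ± 0.37 (adjusted p = 0.00315), 2.71 ± 0.53 (adjusted p = 0.00481) and 1.78 ± 0.43 (adjusted p = 0.00389), and the 3 merged Gstm genes, which include the abundant Gstm1, gave 0.85 ± 0.14 (adjusted p = 0.00156), 2.60 ± 0.26 (adjusted p = 4.75e-05) and 1.58 ± 0.14 (adjusted p = 2.49e-06). The gene with most in common with Gsta1 was Gm3776, outside the 47, which held 69.32% of its windows against 33.75% in Gsta2 and was not merged. Gm3776 itself stood at 1.43 ± 0.57 (adjusted p = 0.102), 3.10 ± 0.55 (adjusted p = 0.00259) and 3.30 ± 0.42 (adjusted p = 3.78e-05), as log2 fold changes in the 3 experiments, and the reads of the pair were not told apart here. The merged Ugt1a locus did not pass in HFCFD2W (-0.16 ± 0.12, adjusted p = 0.411) or HFCFD8W+T10D (0.42 ± 0.21, adjusted p = 0.196) and was lower in HFCFD12W+T10W (-0.48 ± 0.10, adjusted p = 0.00105). The values of Ugt1a9 and Ugt1a1 therefore depend on how the reads of the locus were divided. Merged Ugt3a fell by 0.53 ± 0.10 (adjusted p = 0.00273), 0.83 ± 0.22 (adjusted p = 0.0233) and 1.17 ± 0.09 (adjusted p = 6.35e-07). Merged Gstp1 and Gstp2 gave 0.82 ± 0.18 (adjusted p = 0.00711), 0.28 ± 0.22 (adjusted p = 0.417) and 0.22 ± 0.29 (adjusted p = 0.557). The 4 merged Ugt2b genes, which include the abundant Ugt2b5, gave 0.04 ± 0.09 (adjusted p = 0.776), 0.09 ± 0.17 (adjusted p = 0.762) and -0.54 ± 0.10 (adjusted p = 0.000745). Of the windows of Ugt2b38, 27.9% also occurred in Ugt2b5, so its fall is uncertain as that of a single gene.

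**Figure D5:**
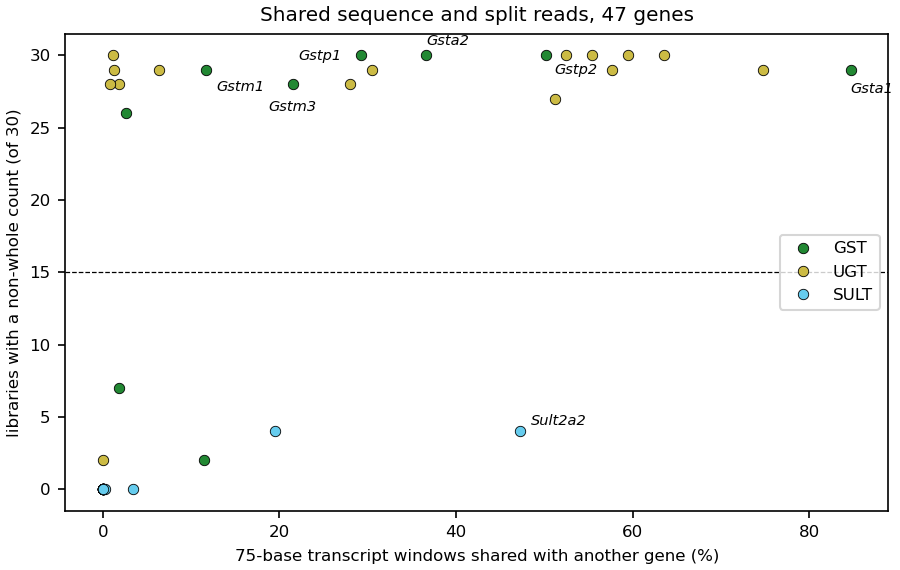
Share of 75-base transcript windows that also occur in another gene (horizontal axis, percent) against the number of libraries in which the expected count was not whole (vertical axis, of 30), 1 point a member, coloured by family, with the dashed line at 15 libraries. The Ugt1a genes lie between 51.16% and 74.76% and Gsta1 at 84.66%.

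Whether the genotype effect differed between experiments was tested with interaction terms in a fit of all 30 libraries, where the experiments differ in diet length, Cre and tamoxifen at once. Between HFCFD2W and HFCFD8W+T10D 15 members differed, 11 with a more positive effect in HFCFD8W+T10D and 4 with a more negative effect, against 4.45% and 6.79% of 12964 genes. Those with a more positive effect were 9 GST and 2 UGT genes, among them Gstm3 at 2.32 ± 0.50 (adjusted p = 0.00276) and Gstm4 at 2.15 ± 0.28 (adjusted p = 9.81e-06). Those with a more negative effect were 2 UGT and 2 SULT genes, among them Sult2a8 at -3.67 ± 0.72 (adjusted p = 0.00118) and Ugt2b1 at -2.89 ± 0.40 (adjusted p = 2.47e-05). Between HFCFD8W+T10D and HFCFD12W+T10W 13 members differed, each towards a more negative effect (7 GST, 5 UGT and 1 SULT), where 5.49% of all genes did so and 4.97% differed the other way. Gstm1 differed there by -1.16 ± 0.27 (adjusted p = 0.00644) and Ugt1a1 by -1.04 ± 0.26 (adjusted p = 0.0121). This count was 6 under total count scaling and 7 without control 3 or control 5 of HFCFD8W+T10D. Between HFCFD2W and HFCFD12W+T10W 20 members differed, 4 more positive, all GST, and 16 more negative, against 13.4% and 17.3% of all genes.

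The controls themselves differed between experiments. From HFCFD2W to HFCFD8W+T10D 10 members were higher and 10 lower in Cebpa fl/fl livers, against 22.2% and 21.5% of 12964 genes. From HFCFD8W+T10D to HFCFD12W+T10W 5 GST genes were higher and Ugt2b37 and Ugt2b38 were lower, by -3.24 ± 0.58 (adjusted p = 0.000427) and -2.37 ± 0.59 (adjusted p = 0.00833), against 6.31% and 5.12%. The count of 7 in the second contrast was 11 without control 4 of HFCFD12W+T10W. Each stage was measured in a single experiment, so stage and experiment cannot be told apart.

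The donors that these enzymes use are made by other pathways. Of 8 tested genes of glutathione supply, 2 fell in HFCFD2W, 1 rose and 2 fell in HFCFD8W+T10D, and 2 rose and 3 fell in HFCFD12W+T10W, where the cystathionine beta-synthase gene Cbs stood at -1.03 ± 0.19 (adjusted p = 0.000615). Among 5 genes of UDP-glucuronate supply, 1 fell in HFCFD2W, 1 rose in HFCFD8W+T10D, and 1 rose and 2 fell in HFCFD12W+T10W. Of 7 genes that make or move PAPS, 1 fell in HFCFD2W and 1 rose and 4 fell in HFCFD12W+T10W. The shares of all genes called in each direction, given above, are the background for these counts.

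NRF2 is a stress-response factor known to drive several GST genes. Its own transcript, Nfe2l2, was lower in the knockouts of HFCFD2W (-0.61 ± 0.10, adjusted p = 0.00127). It was higher in those of HFCFD8W+T10D (0.56 ± 0.15, adjusted p = 0.0228) and HFCFD12W+T10W (0.73 ± 0.08, adjusted p = 8.7e-06). The part of NRF2 in the GST results was not tested. Of 9 tested targets outside the 3 families, 4 rose in HFCFD8W+T10D and 5 in HFCFD12W+T10W, where 10.3% and 27.4% of all genes tested rose. In HFCFD2W edgeR called 0 in either direction, with 1 higher and 1 lower at an unadjusted p under 0.05, and DESeq2 called 1 higher. The quinone reductase gene Nqo1 changed by 2.21 ± 0.22 (adjusted p = 4.38e-05) in HFCFD8W+T10D, the epoxide hydrolase gene Ephx1 by 1.07 ± 0.25 (adjusted p = 0.0119), and the sulfiredoxin gene Srxn1 by 1.08 ± 0.22 (adjusted p = 0.00682) and, in HFCFD12W+T10W, 1.19 ± 0.15 (adjusted p = 3.38e-05). Of 12 genes for xenobiotic sensors and hepatic regulators, 1 rose in each experiment and 2, 6 and 9 fell, where 8.09%, 6.85% and 23.8% of all genes fell. The constitutive androstane receptor gene Nr1i3 was lower in knockouts than in controls of HFCFD8W+T10D (-1.37 ± 0.16) and HFCFD12W+T10W (-1.49 ± 0.12). Cyp2b10, the P450 known as its target, was also lower in these knockouts, at -2.43 ± 0.64 and -3.58 ± 0.57. Cebpb, a paralogue of Cebpa, rose in HFCFD2W (1.11 ± 0.15, adjusted p = 0.000394), stood at 0.07 ± 0.14 (adjusted p = 0.794) in HFCFD8W+T10D and fell in HFCFD12W+T10W (-0.44 ± 0.12, adjusted p = 0.00751). Of the listed P450 genes 3 of 5, 3 of 6 and 4 of 7 tested fell, against 8.09%, 6.85% and 23.8% of all genes.

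Among other transferases, the N-methyltransferase gene Nnmt fell in each experiment, with log2 fold changes of -1.91 ± 0.61 (adjusted p = 0.0495), -2.67 ± 0.45 (adjusted p = 0.0019) and -1.77 ± 0.22 (adjusted p = 2.57e-05). Nat8, which acetylates cysteine conjugates in the route from glutathione conjugates to mercapturic acids, fell in the tamoxifen experiments by 1.78 ± 0.38 (adjusted p = 0.00775) and 1.63 ± 0.27 (adjusted p = 0.00024) on the log2 scale. Inmt fell in HFCFD12W+T10W (-1.26 ± 0.14). In this list 3 rose and 2 fell in HFCFD2W, 5 of 11 fell in HFCFD8W+T10D and 7 of 10 fell in HFCFD12W+T10W. Of all genes tested, 8.6% rose and 8.09% fell in HFCFD2W, 6.85% fell in HFCFD8W+T10D and 23.8% fell in HFCFD12W+T10W. Of the exporters that carry conjugates out of the hepatocyte, Abcc4 rose in each experiment, with log2 fold changes of 1.53 ± 0.33 (adjusted p = 0.00725), 2.61 ± 0.31 (adjusted p = 0.000156) and 1.76 ± 0.26 (adjusted p = 0.000132). Abcc3 (-1.44 ± 0.13, adjusted p = 2.64e-06) and Abcc6 (-1.03 ± 0.11, adjusted p = 8.16e-06) fell in HFCFD12W+T10W. The 3 deconjugating enzymes tested had 1 rise in HFCFD2W and 1 fall in each experiment, with the same shares of all genes as background.

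Across the 41 windows of 300 bases around the RefSeq starts, the C/EBP letters TTGCNNAA occurred in 11 (Gsta3, Gstm2, Gstp3, Gstt1, Mgst1, Sult1c2, Sult2a8, Ugt2a3, Ugt2b1, Ugt2b36 and Ugt2b5), where 10.8% of 27025 promoters hold them. In HFCFD12W+T10W 1 of these 11 genes (Gstm2) was higher and 10 lower, while of the 29 tested genes without the letters 9 were higher and 11 lower. Gsta3 and Gstp3 are among the 10 and did not pass under total count scaling. In HFCFD8W+T10D the counts were 1 higher and 5 lower with the letters, and 13 and 6 of 30 without. In HFCFD2W 4 of the 11 were lower, against 7 higher and 5 lower of 30 without. The antioxidant response core TGACNNNGC occurred in 3 windows (12.5% of all promoters), the AHR core GCGTG in 9 (32.5%), and the part of the HNF1 consensus in 4 (0.437%), namely Ugt1a1, Ugt1a9, Ugt1a10 and Sult1d1. For members the window nearest the GENCODE start was used, and for the share of all promoters the first listed window of each gene. The members and that share were therefore not chosen by the same rule. All motifs were searched on both strands, genes of a cluster are not independent, and these counts are descriptions with no test.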

How the data were processed

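Liver RNA-seq was measured in 30 libraries, 5 mice in each of 6 groups, and the groups were taken from the labels. According to the submitters' processing notes, reads were handled with Trimmomatic 0.36, STAR 2.5.1, Picard 1.84 and RSEM 1.2.22 on mm10, and DESeq2 is named there too. The values deposited by the authors and used here were RSEM expected counts per gene, which can be fractions where reads match several genes, and TPM, which the authors' RSEM run scales for length and depth. The gene identifiers were those of GENCODE M21. Paralogues share reads under this estimation, and for the marked members the single-gene values carry that uncertainty.

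Expected counts were rounded to whole numbers. For each experiment, genes were filtered with filterByExpr, scaled with TMM and tested by the quasi-likelihood test of edgeR 4.0.16 in R 4.3.3 on knockout against control, with no covariate, and p-values were adjusted over all genes tested. Interactions and control contrasts came from a fit of all 30 libraries. CPM used TMM factors over all 30 libraries, and TPM served only to rank genes. The test was checked on simulated counts. The alternatives were DESeq2 1.42.0, limma 3.58.1 (limma-trend on log2 CPM), other scalings, no filter, stricter thresholds, merged members, a replicate block and leaving out each mouse. Scaling by total counts was chosen after seeing the data. The members and the gene lists were chosen with earlier results of these data known. Members named singly with full values were those over 2-fold at an adjusted p under 0.05 in any experiment and the 3 of each family with the highest mean TPM, which gave 27 genes, and list genes were named, up to 6 a list, under the same threshold. Other members appear with their values where a count was 5 or fewer or to complete a class, a choice made with their values known. Motifs and windows came from RefSeq promoters (GRCm38.p6). Library totals of 7996123 to 10257347 counts set the precision, and Sult2a1 and Sult2a2 were too low to test in the 3 experiments, as was Ugt2b38 in HFCFD12W+T10W.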

Additional observations from a re-analysis of the deposited data

Results flagged for a closer look

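In the 27 genes named with full values, 162 groups of 5 mice were examined for a mouse set apart from the other 4, and 9 were found, where chance gives about 1 in 20 groups. Among the HFCFD8W+T10D livers these were Gsta1 in knockout 1 at 7.588 CPM, below the next value of 69.99, Gstp1 in control 5 at 644.5 CPM, and Ugt2a3 in control 2 at 665.2 CPM. In HFCFD12W+T10W they were Gstt3 in control 4 at 13.89 CPM, Sult1a1 in knockout 5 at 176.4 CPM, Sult2a8 in knockout 3 at 28.04 CPM, Ugt2b1 in the same knockout at 86.56 CPM, and Ugt1a9 in knockout 1 at 279.6 CPM. In HFCFD2W it was Ugt1a7c in control 2 at 5.195 CPM.

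The genotype effect of named members also differed between experiments by the interaction test of edgeR at an adjusted p under 0.05, and the values that follow are differences of log2 fold changes. From HFCFD2W to HFCFD8W+T10D they were Gstm1 (1.60), Gstm2 (1.83), Gstm3 (2.32), Gstm4 (2.15), Gstt1 (0.80), Mgst3 (1.29), Sult2a8 (-3.67), Ugt1a1 (0.97), Ugt1a5 (2.42), Ugt2b1 (-2.89) and Ugt2b38 (-4.73). From HFCFD8W+T10D to HFCFD12W+T10W they were Gstm1 (-1.16), Gstm2 (-0.95), Gstm4 (-1.16), Sult1a1 (-0.93), Ugt1a1 (-1.04) and Ugt2b5 (-0.82). From HFCFD2W to HFCFD12W+T10W they were Gstm2 (0.88), Gstm3 (1.62), Gstm4 (0.98), Sult1c2 (-0.94), Sult2a8 (-5.61), Sult5a1 (-2.29), Ugt2a3 (-1.39), Ugt2b1 (-3.45), Ugt2b36 (-0.76), Ugt2b38 (-4.31), Ugt2b5 (-0.87), Ugt3a1 (-0.88) and Ugt3a2 (-0.61). Diet length, tamoxifen and, against HFCFD2W, the kind of Cre differ between these experiments and cannot be told apart.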

How the results depend on the processing

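Over the 3 experiments 80 member calls were made at an adjusted p under 0.05 by edgeR, and 22 were lost in at least 1 alternative or with a mouse left out. Requiring over 2-fold left 4 higher and 3 lower in HFCFD2W, 7 lower in HFCFD8W+T10D, 6 higher and 11 lower in HFCFD12W+T10W, 3 and 7 interactions of HFCFD12W+T10W against HFCFD8W+T10D and HFCFD2W, and 11 and 2 control differences for HFCFD8W+T10D against HFCFD2W and HFCFD12W+T10W against HFCFD8W+T10D. An adjusted p under 0.01 left 6 lower in HFCFD2W and 7 lower in HFCFD8W+T10D, and 9, 4 and 11 interactions (HFCFD8W+T10D against HFCFD2W, HFCFD12W+T10W against HFCFD8W+T10D, HFCFD12W+T10W against HFCFD2W). With the 21 near-identical members merged by class, fewer features could pass, and the counts were 5, 9 and 6 higher in the 3 experiments and 4 control differences of HFCFD12W+T10W against HFCFD8W+T10D. The interactions of HFCFD12W+T10W against HFCFD8W+T10D numbered 8 with upper quartile normalization and 6 with total count scaling, and the cause was not tested. Total count scaling reversed 2 values in HFCFD12W+T10W, Gsta3 at 0.0611 (adjusted p = 0.593) and Ugt2b34 at 0.2504 (adjusted p = 0.0112), and ended 8 calls. It moved the median of all genes to 0.0287, 0.1947 and 0.3837 in the 3 experiments, and leaving out the low-count filter moved it to 0.1236 in HFCFD12W+T10W.

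With a replicate block on the mouse numbers, HFCFD2W had 4 members higher and 6 lower, HFCFD8W+T10D 15 and 10, and HFCFD12W+T10W 11 and 24, and the interactions numbered 11, 9 and 15. The labels do not say whether the numbers pair the mice. Correlations of same-numbered deviations over the 2000 most variable genes lay between -0.370 and 0.079 in HFCFD2W. They lay between -0.107 and 0.177 in HFCFD8W+T10D and between -0.058 and 0.213 in HFCFD12W+T10W. Such correlations cannot show that the mice were unpaired. With each mouse left out in turn, members higher numbered between 6 and 8, 15 and 16, and 8 and 12 over the experiments in turn, and members lower between 7 and 11, 9 and 16, and 23 and 25. The interactions lay between 12 and 18, 7 and 17, and 16 and 21, and the control differences between 18 and 21 and between 7 and 11. The lower count of HFCFD12W+T10W against HFCFD8W+T10D, 7, came without control 3 or control 5 of HFCFD8W+T10D. Calls lost with a mouse left out were 13, most often Ugt3a1 in HFCFD8W+T10D (9 of 10 mice), Gsta1 in HFCFD2W and Gstz1 and Sult1c2 in HFCFD8W+T10D (7 of 10 each). Counts were too low to test Sult2a1 and Sult2a2 in the 3 experiments and Ugt2b38 in HFCFD12W+T10W.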
